A study of Rattus norvegicus with 9 samples.

Results

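Subunit genes of respiratory complexes II, III, IV and V were examined in pancreatic islets of rats fed a cafeteria diet or standard chow. The members were taken from a list of 39 nuclear genes, which names subunits of the 4 complexes and cytochrome c. The list uses no measured value, but it was chosen with earlier results of these data known. A probe set that the platform annotation gives to a single gene was found for 34 of the 39, among 14217 such genes on the array. These were 4 of complex II, 8 of complex III, 9 of complex IV and 13 of complex V, and no filter on low values removed any of them. Uqcrb, Cycs, Cox7a2, Atp5mc1 and Atp5mc2 were read only by probe sets that the annotation shares between the gene and a related locus or pseudogene, and these are given apart.

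Islets of Wistar rats were freed with collagenase, and the RNA of each sample was hybridised to its own Affymetrix Rat Genome 230 2.0 array. The cafeteria group held 5 samples labelled obese, from rats given a palatable, energy-dense diet for 30 days, and the chow group held 4 samples labelled lean. The sources used here do not state the sex and age of the animals or whether islets were pooled, so the tests measure the spread between these 9 samples. Values are log2 expression, and every difference is cafeteria minus chow on that scale, with the moderated standard error (SE). In whole islets, fewer cells of a type and less RNA per cell cannot be told apart.

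The mitochondrial respiratory chain passes electrons from nutrients to oxygen and stores the energy as a proton gradient. Complex II (succinate dehydrogenase) feeds in electrons from succinate of the citrate cycle, complex III (the cytochrome bc1 complex) hands them to the mobile carrier cytochrome c, complex IV (cytochrome c oxidase) reduces oxygen, and complex V (ATP synthase) uses the gradient to make ATP. In beta cells the ATP made from glucose closes potassium channels and so starts insulin secretion. Complexes III, IV and V also hold subunits encoded in mitochondrial DNA, which are not among the members.

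The promoters of such genes are known for short words bound by nuclear respiratory factor 1 (NRF-1), by ETS factors such as GABP (also called NRF-2) and by YY1. RefSeq promoters (assembly GRCr8, 250 bases before to 50 after the annotated start) were found for 33 of the 39 genes, and Uqcrb, Uqcr11, Cyc1, Cox6a1, Cox6c and Atp5pd had no entry. Searched without mismatch on both strands, the NRF-1 word CGCNTGCGC (N for any base) was found in 9 of 33 promoters (27.3%), against 5.80% of all 33469 promoters of the same length. The members' promoters held more G and C, with a median of 57.7%, against 51.7% over all promoters, and the shares were not adjusted for this. The ETS word CCGGAAGT was found in 5 (15.2%, against 3.81%) and the YY1 word AAGATGGCG in 3 (9.09%, against 1.73%). At least 1 of the words stood in 16 of the 33, against 10.35% of all promoters, and 0 promoters of the members held both the NRF-1 and the ETS word. The NRF-1 word is nearly the same on both strands, and in 3 promoters its matches on the 2 strands overlapped as 1 site, in Atp5mc2, Atp5me and Atp5po. No other words overlapped. The NRF-1 and YY1 words were each shortened by a letter at one end after a first search with the longer words had been seen, and the longer words had been found in a smaller share both of the members' promoters and of all promoters. The 4 promoters below belong to the member of each complex with the smallest unadjusted p among those whose promoter holds a word, a choice made after the search, and capitals mark the words. They lie at chr1:30764303-30764602 (plus strand, Sdha), chr5:134790833-134791132 (minus strand, Uqcrh), chr1:213833574-213833873 (minus strand, Cox8a) and chr11:44657434-44657733 (minus strand, Atp5po), and are written along the strand of the gene.
Sdha: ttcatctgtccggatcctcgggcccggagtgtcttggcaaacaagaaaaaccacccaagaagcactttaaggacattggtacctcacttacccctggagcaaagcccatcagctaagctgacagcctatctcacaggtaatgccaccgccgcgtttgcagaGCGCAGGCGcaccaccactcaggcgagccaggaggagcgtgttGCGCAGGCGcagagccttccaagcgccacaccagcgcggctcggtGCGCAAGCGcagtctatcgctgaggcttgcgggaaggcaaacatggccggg
Uqcrh: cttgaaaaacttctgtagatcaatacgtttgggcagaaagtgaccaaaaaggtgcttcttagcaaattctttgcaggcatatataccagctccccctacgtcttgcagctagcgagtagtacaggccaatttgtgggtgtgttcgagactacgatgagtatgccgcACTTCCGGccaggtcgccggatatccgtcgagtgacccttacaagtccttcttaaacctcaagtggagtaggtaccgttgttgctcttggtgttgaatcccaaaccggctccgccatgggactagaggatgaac
Cox8a: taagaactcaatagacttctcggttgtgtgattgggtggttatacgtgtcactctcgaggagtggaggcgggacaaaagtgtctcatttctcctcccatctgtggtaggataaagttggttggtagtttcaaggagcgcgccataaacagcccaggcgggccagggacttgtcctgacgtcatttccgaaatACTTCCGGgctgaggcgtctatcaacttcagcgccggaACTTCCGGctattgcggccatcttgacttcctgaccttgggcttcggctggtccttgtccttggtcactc
Atp5po: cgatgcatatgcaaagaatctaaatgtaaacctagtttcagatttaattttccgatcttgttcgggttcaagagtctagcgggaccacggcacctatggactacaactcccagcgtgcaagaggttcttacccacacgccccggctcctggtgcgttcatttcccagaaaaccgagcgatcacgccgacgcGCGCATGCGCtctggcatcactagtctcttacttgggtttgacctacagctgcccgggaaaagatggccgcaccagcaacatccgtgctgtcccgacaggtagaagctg
Sdha held 3 NRF-1 words, the last of which covers the annotated start, Atp5po held 1 such site, Uqcrh held 1 ETS word and Cox8a held 2. A match of letters describes the sequence and shows no binding.

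The arrays were close to each other, with correlations over all probe sets between 0.979 and 0.994. Markers of beta cells were bright, with 8 measured markers averaging between 8.56 and 14.19. Cafeteria replicate 3 stood apart from the other arrays: it held the lowest or the highest of the 9 values in 38.6% of all genes, against 12.4% to 25.2% for each other array. The 3-prime minus 5-prime difference of the actin and Gapdh control probe sets, a sign of RNA integrity, averaged 1.51 ± 0.24 in cafeteria samples and 1.56 ± 0.16 in chow samples (SD, n = 5 and 4; two-sided exact permutation p = 0.746). It was highest in chow replicate 1 (1.80), cafeteria replicate 3 (1.74) and cafeteria replicate 5 (1.73). Markers of acinar cells, which surround the islets, had positive differences in 14 of 15 genes, with array scores (mean deviation from the 9-array mean) from -1.11 to 0.77 in cafeteria samples and from -0.79 to 0.20 in chow samples. Immune cell markers had negative differences in 10 of 10 genes, with scores from -0.45 to -0.060 in cafeteria samples and from -0.049 to 1.24 in chow samples. With the acinar score as a covariate 26 of the 34 members had a positive difference and 0 passed the test, where 0 of all probe sets did. Of the 3 members at an unadjusted p under 0.05 without the covariate, Sdha and Cyc1 no longer reached that level with it, at differences of 0.15 and 0.17. Cox5a still did, at 0.44, and Uqcrh, which did not without the covariate, did with it, at 0.23. Differences were also negative in 7 of 7 markers of other islet cells (median -0.22), in 7 of 7 endothelial markers (median -0.13) and in 6 of 8 ductal markers (median -0.30). Beta cell markers had negative differences in 5 of 8 genes (median -0.015). Their scores ran from -0.090 to 0.10 in cafeteria samples and from 0.0050 to 0.078 in chow samples. Of the stellate and matrix markers 5 of 8 had negative differences (median -0.13). The part of these markers and of the immune markers in the results was not tested.

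No respiratory subunit gene passed the test, and the differences were small. By limma with Benjamini-Hochberg adjustment, 0 of 34 members reached an adjusted p of 0.05 or of 0.10, where 0% of 31042 probe sets did, and the smallest adjusted p of the members was 0.844. At an unadjusted p under 0.05 there were 3 members with higher values under the cafeteria diet, Sdha, Cyc1 and Cox5a, against 3.42% of all genes, and 0 with lower values, against 3.28%. The groups did not overlap in 1 member, Cyc1, against 1.33% of genes with higher and 0.837% with lower cafeteria values. The 95% interval of the difference lay within 1.5-fold to either side in 32 of 34, the exceptions being Cox5a and Cox6a1, which is 94.1%, against 90.5% of all genes.

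The direction leaned towards higher values under the cafeteria diet. The difference was positive in 25 of 34 members (73.5%), against 50.8% of all genes, with a median of 0.0626 over the members and 0.0025 over all genes. The median was 0.10 for complex II, 0.12 for complex III, 0.026 for complex IV and 0.041 for complex V. The order of the complexes depended on single arrays: without cafeteria replicate 3 the median of complex IV was 0.12, the highest of the 4, and without cafeteria replicate 1 it was 0.0024. The median of complex V was 0.0015 without chow replicate 1 and 0.0081 without cafeteria replicate 1, and a fit that included the 3-prime minus 5-prime difference gave 0.0087. Positive differences were found in 4 of 4 members of complex II, 5 of 8 of complex III, 7 of 9 of complex IV and 9 of 13 of complex V. Subunits of 1 pathway vary together across arrays, so the members are not separate votes. The count depended on single samples, with 34 of 34 positive without cafeteria replicate 3 and 20 of 34 without cafeteria replicate 1.

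**Figure D1:**
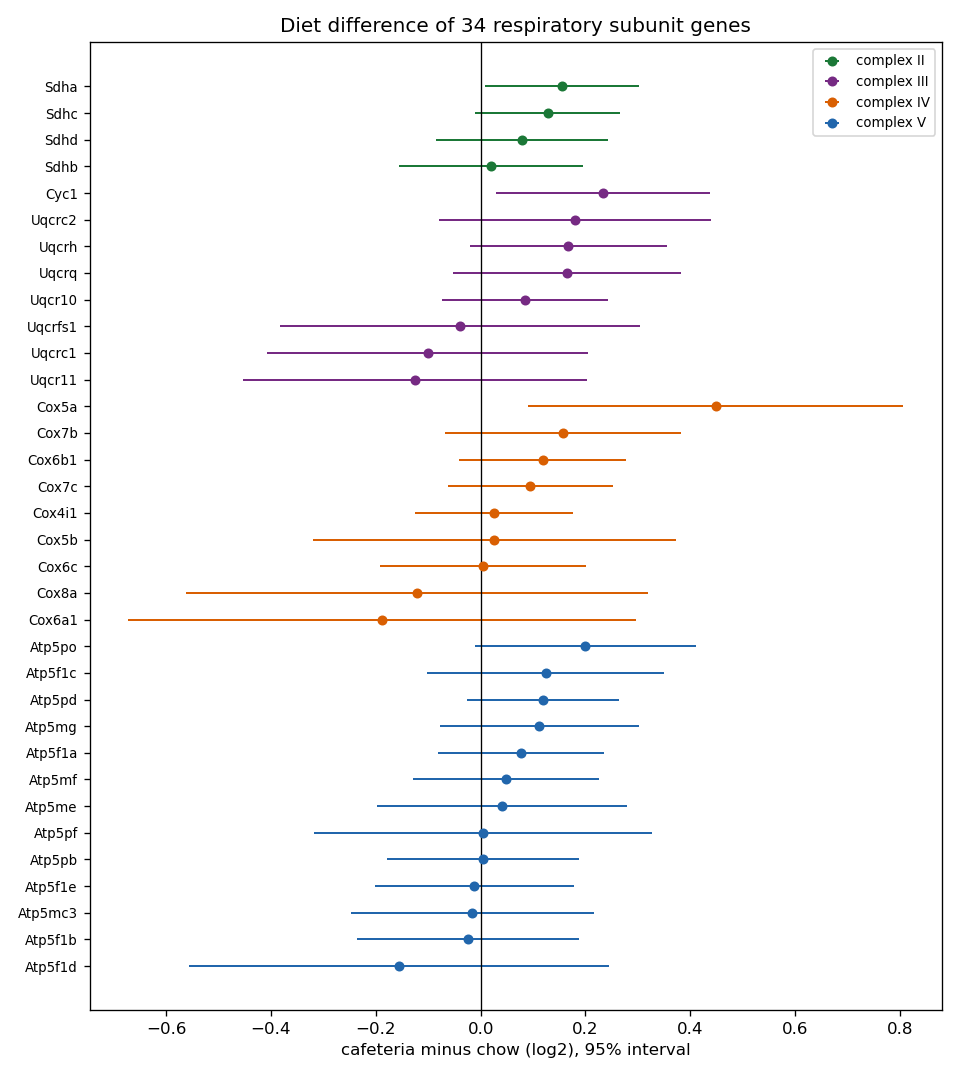
Difference between the diets (cafeteria minus chow, log2) for each of the 34 measured members, grouped and coloured by complex, where points are estimates and bars 95% intervals from limma. Most intervals include 0, and the widest belong to Cox6a1, at -0.19, and Cox8a, at -0.12. The largest difference is that of Cox5a, at 0.45.

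The difference between the diets was larger than the residual SD within groups in 12 of 34 members (35.3%), Sdha, Sdhc, Cyc1, Cox5a and Atp5pd among them, against 22.7% of all genes, and 1 array stood out in most members. Cafeteria replicate 3 had the lowest value of all 9 arrays in 14 members and the highest in 8, so that it stood at an end in 22 of 34 (64.7%). Among all genes it was lowest in 18.8% and highest in 19.8%. Chow replicate 4 was lowest in 12 members (35.3%, against 10.7% of all genes), and cafeteria replicate 1 was highest in 11 (32.4%, against 10.2%). Cafeteria replicates 1, 2, 4 and 5 were lowest in 0 members, against 9.75%, 9.19%, 6.68% and 9.55% of all genes.

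In 13 members (38.2%, against 6.67% of all genes) the 2 lowest arrays were cafeteria replicate 3 and chow replicate 1. These were Uqcr10, Uqcr11 and Uqcrc1 of complex III, Cox5b, Cox6a1, Cox6c, Cox7b and Cox8a of complex IV, and Atp5f1b, Atp5f1d, Atp5mc3, Atp5me and Atp5pf of complex V, with 0 members of complex II. These 2 arrays had the highest 3-prime minus 5-prime differences, and cafeteria replicate 5 had nearly the same value. Cafeteria replicate 5 was the lowest array in 0 members. It was the next lowest after these 2 in Uqcr11, Cox5b, Cox6a1, Cox6c, Cox8a, Atp5f1b, Atp5f1d and Atp5pf. In Uqcr10, Uqcrc1, Cox7b, Atp5mc3 and Atp5me of this set it was not. A link of this pattern with RNA integrity was not tested. With the 3-prime minus 5-prime difference as a covariate, the differences of the members were positive in 21 of 34. The test was passed by 0 members, where 0 of all probe sets passed it. The members at their highest in cafeteria replicate 3 were Sdhc, Sdhd, Cyc1, Uqcrc2, Cox5a, Atp5po, Atp5f1c and Atp5f1a. In each of the 4 complexes this array was thus lowest for some subunits and highest for others. Sdhb alone was at the low end in complex II and Cox5a alone at the high end in complex IV. That probe set of Cox5a was dim, with a mean of 5.56. In a brighter one, shared with LOC100361008, cafeteria replicate 3 was the lowest cafeteria array, at 9.65.

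**Figure D2:**
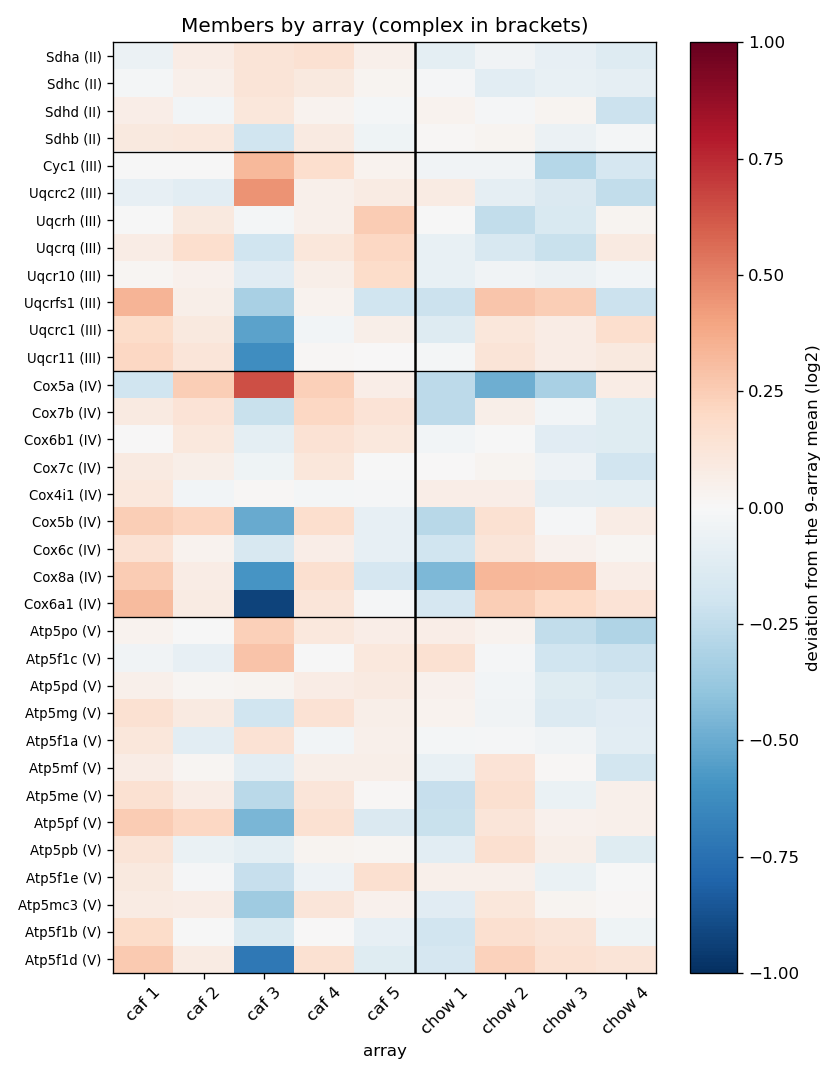
Deviation of each member from its mean over the 9 arrays (log2, red above and blue below), with members in rows, ordered by complex and difference, and arrays in columns, cafeteria left of the line and chow right of it. Cafeteria replicate 3 holds the deepest blue, -0.92 in Cox6a1, and the deepest red, 0.64 in the dim probe set of Cox5a.

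Complex II, which is built from nuclear genes alone, had positive differences in its 4 members, although that of Sdhb was -0.0012 without cafeteria replicate 1 and -0.0045 without cafeteria replicate 2. Sdha encodes the flavoprotein that oxidises succinate. It had 8.29, 8.42, 8.48, 8.50 and 8.40 in cafeteria replicates 1 to 5, against 8.25, 8.31, 8.27 and 8.22 in chow replicates 1 to 4. Of the cafeteria arrays only replicate 1 lay inside the chow range, and the difference was 0.16 (SE 0.07), a 1.11-fold higher level (limma adjusted p = 0.844). Sdhc, which encodes a membrane anchor that holds haem, had 9.82, 9.89, 9.97, 9.94 and 9.87 in cafeteria islets, against 9.83, 9.74, 9.77 and 9.75 in chow islets. The overlap came from cafeteria replicate 1 and chow replicate 1, and the difference was 0.13 (SE 0.06). Sdhd, the other membrane anchor, had 9.71, 9.62, 9.75, 9.68 and 9.62 in cafeteria samples, against 9.67, 9.63, 9.67 and 9.42 in chow samples. Chow replicate 4 alone was low, and the difference of 0.079 (SE 0.07) was 0.021 without it. The second probe set of Sdhd differed by 0.11 (SE 0.08). Sdhb, the iron-sulphur subunit, differed by 0.020 (SE 0.08), with cafeteria replicate 3 lowest at 9.65. The median deviation of the 4 genes from their 9-array means lay between 0.0042 and 0.12 in cafeteria arrays and between -0.11 and -0.0003 in chow arrays, so the groups did not overlap in this summary, which was not tested.

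In complex III 5 members had positive and 3 had negative differences, none of them past the test, and the 3 negative ones were positive without cafeteria replicate 3. Cyc1 encodes cytochrome c1, the haem protein that passes electrons to cytochrome c. It had 9.59, 9.59, 9.93, 9.77 and 9.63 in cafeteria samples, against 9.56, 9.57, 9.31 and 9.43 in chow samples. The groups did not overlap, but cafeteria replicates 1 and 2 lay just above chow replicates 1 and 2, and the difference was 0.23 (SE 0.09; limma adjusted p = 0.844). It was 0.18 to 0.27 when single samples were left out.

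Uqcrh, the hinge protein next to cytochrome c1, had 10.28, 10.38, 10.26, 10.33 and 10.54 in cafeteria samples, against 10.28, 10.04, 10.14 and 10.31 in chow samples. Chow replicates 2 and 3 were low and cafeteria replicate 5 high, with overlap, and the difference was 0.17 (SE 0.08). Uqcrq, a small subunit of the membrane part, had 10.76, 10.85, 10.49, 10.80 and 10.89 in cafeteria samples, against 10.61, 10.52, 10.46 and 10.77 in chow samples. Cafeteria replicate 3 lay low among the chow values and chow replicate 4 among the cafeteria values. The difference of 0.16 (SE 0.10) was 0.23 without cafeteria replicate 3 and 0.22 without chow replicate 4.

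The core proteins face the mitochondrial matrix. Uqcrc2 (core protein 2) differed by 0.18 (SE 0.12), or by 0.088 without cafeteria replicate 3, where it was highest at 10.40. Its dimmer probe set differed by -0.0024 (SE 0.09). Uqcrc1 (core protein 1) differed by -0.10 (SE 0.14) and was lowest in the same array at 9.47. Uqcr10 differed by 0.085 (SE 0.07), Uqcr11 by -0.12 (SE 0.15) and Uqcrfs1, which encodes the Rieske iron-sulphur protein, by -0.039 (SE 0.15). Without cafeteria replicate 3 Uqcrc1, Uqcr11 and Uqcrfs1 had positive differences of 0.023, 0.017 and 0.037. The probe set shared by Uqcrb and Uqcrbl1 differed by 0.022 (SE 0.07), with overlap between the groups.

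The 2 probe sets that the annotation shares between Cycs, the gene of cytochrome c, and Cycs-ps9 and Cycsl1 also separated the groups, and they cannot be given to Cycs alone. The brighter of them had 10.83, 10.92, 11.40, 11.02 and 11.23 in cafeteria samples, against 10.82, 10.82, 10.69 and 10.67 in chow samples. The other had 9.54, 9.53, 9.87, 9.68 and 9.55 in cafeteria samples, against 9.31, 9.48, 9.34 and 9.04 in chow samples. In both the cafeteria arrays all lay above the chow arrays, in the brighter one by a narrow margin, and cafeteria replicate 3 was highest. The differences were 0.33 (SE 0.12) and 0.34 (SE 0.10), or 1.26-fold and 1.27-fold, with a limma adjusted p of 0.844 for each.

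Complex IV had the largest single difference and the widest spreads. Cox5a, a subunit on the matrix side of the enzyme, had 5.36, 5.80, 6.20, 5.79 and 5.63 in cafeteria samples, against 5.30, 5.07, 5.23 and 5.63 in chow samples. Chow replicate 4 lay among the cafeteria values and cafeteria replicate 1 near the chow values, and the difference was 0.45 (SE 0.16; 95% interval 0.091 to 0.81; limma adjusted p = 0.844). This probe set was the dimmest of all members, with a mean of 5.56 where the column medians lay between 5.28 and 5.32. A much brighter probe set, which the annotation shares between Cox5a and LOC100361008, had 9.72, 9.72, 9.65, 9.85 and 9.83 in cafeteria samples, against 9.61, 9.79, 9.70 and 9.55 in chow samples. It differed by 0.088 (SE 0.07), and cafeteria replicate 3, the highest array in the dim probe set, was the lowest cafeteria array in the bright one.

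Cox6b1, which joins the monomers of the dimeric enzyme on the outer face of the inner membrane, had 10.16, 10.26, 10.06, 10.30 and 10.26 in cafeteria samples, against 10.12, 10.15, 10.05 and 10.04 in chow samples. Only cafeteria replicate 3 lay within the chow range, and the difference was 0.12 (SE 0.07). Cox7b had 11.17, 11.22, 10.86, 11.29 and 11.22 in cafeteria samples, against 10.82, 11.14, 11.06 and 10.96 in chow samples. Cafeteria replicate 3 and chow replicate 1 were the 2 low arrays, and the difference was 0.16 (SE 0.10).

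Cox6a1 and Cox8a, small membrane subunits of the enzyme, had the widest spread within groups among the members, with residual SDs of 0.39 and 0.35, against a median of 0.14 over the members and 0.15 over all genes. They are described beyond the rule for named genes because of the values seen. Cox6a1 had 10.70, 10.46, 9.46, 10.50 and 10.37 in cafeteria samples, against 10.21, 10.63, 10.58 and 10.52 in chow samples. Cafeteria replicate 3 was far below all others, and the difference of -0.19 (SE 0.22) was 0.022 without it. Cox8a had 11.65, 11.47, 10.81, 11.56 and 11.23 in cafeteria samples, against 10.95, 11.73, 11.72 and 11.46 in chow samples. One array of each group was low, cafeteria replicate 3 and chow replicate 1, and the difference was -0.12 (SE 0.20). Cox4i1, Cox5b and Cox6c, of which Cox4i1 encodes the subunit through which ATP regulates the enzyme, differed by 0.026 (SE 0.07), 0.026 (SE 0.16) and 0.0048 (SE 0.09). Cox7c differed by 0.095 (SE 0.07), and the probe set shared by Cox7a2 and Cox7a2l2 by 0.13 (SE 0.09).

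**Figure D3:**
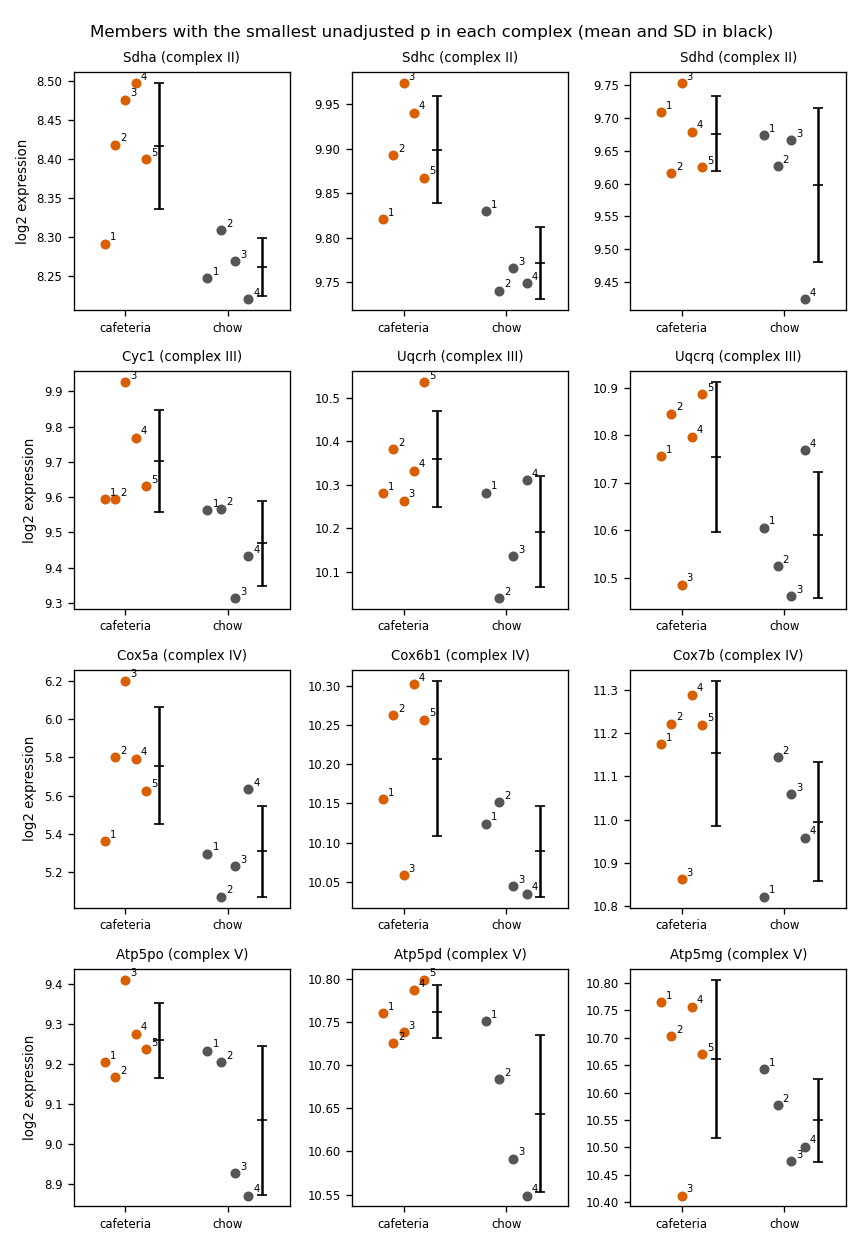
Log2 expression on every array for the 3 members with the smallest unadjusted p in each of complexes II, III, IV and V, where points are arrays, labelled by replicate number, and black marks give the mean and SD of each group (n = 5 cafeteria and 4 chow). The axis of each panel has its own range and does not start at 0. Only in Cyc1 do the groups not overlap, with 9.59 as the lowest cafeteria value and 9.57 as the highest chow value.

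In complex V the differences lay between -0.16 and 0.20, and the 3 members with the smallest p belong to the peripheral stalk and the membrane part. Atp5po encodes the oligomycin sensitivity conferring protein, which ties the head to the peripheral stalk. It had 9.21, 9.17, 9.41, 9.28 and 9.24 in cafeteria samples, against 9.23, 9.21, 8.93 and 8.87 in chow samples. Chow replicates 3 and 4 were low, whereas chow replicates 1 and 2 lay among the cafeteria values, and the difference was 0.20 (SE 0.10). Its dimmer probe set, with values below the array medians, differed by 0.028 (SE 0.07). Atp5pd, another stalk subunit, had 10.76, 10.73, 10.74, 10.79 and 10.80 in cafeteria samples, against 10.75, 10.68, 10.59 and 10.55 in chow samples. The cafeteria arrays spread by an SD of 0.031 and the chow arrays by 0.091, with chow replicate 1 inside the cafeteria range, and the difference was 0.12 (SE 0.07). Atp5mg, a subunit of the membrane part, had 10.76, 10.70, 10.41, 10.76 and 10.67 in cafeteria samples, against 10.64, 10.58, 10.47 and 10.50 in chow samples. Cafeteria replicate 3 was the lowest of all arrays, and the difference of 0.11 (SE 0.09) was 0.17 without it.

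The genes of the catalytic head, Atp5f1a (alpha) and Atp5f1b (beta), differed by 0.077 (SE 0.07) and -0.024 (SE 0.10). The central stalk genes Atp5f1c (gamma), Atp5f1d (delta) and Atp5f1e (epsilon) differed by 0.12 (SE 0.10), -0.16 (SE 0.18) and -0.012 (SE 0.09). Gamma was highest and delta lowest in cafeteria replicate 3, at 11.18 and 9.40. The peripheral stalk genes Atp5pb and Atp5pf differed by 0.0038 (SE 0.08) and 0.0045 (SE 0.15), and the membrane subunit genes Atp5me and Atp5mf by 0.041 (SE 0.11) and 0.048 (SE 0.08).

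The rotor ring of ATP synthase is made of subunit c, for which mammals have a family of genes, Atp5mc1, Atp5mc2 and Atp5mc3, that encode the same mature protein behind different import signals. Atp5mc3 had 11.10, 11.10, 10.66, 11.14 and 11.07 in cafeteria samples, against 10.91, 11.14, 11.05 and 11.03 in chow samples. Cafeteria replicate 3 was far below the other cafeteria arrays, and the difference of -0.016 (SE 0.10) was 0.072 without it. The probe set shared by Atp5mc1 and Atp5mc1l1 had 10.91, 10.97, 10.54, 11.01 and 10.97 in cafeteria samples, against 10.65, 10.81, 10.61 and 10.79 in chow samples. Its difference was 0.17 (SE 0.10). That shared by Atp5mc2 and Atp5mc2l1 had 9.68, 9.47, 8.66, 9.57 and 9.38 in cafeteria samples, against 9.45, 9.67, 9.53 and 9.45 in chow samples. It differed by -0.18 (SE 0.18), and in both probe sets cafeteria replicate 3 was again lowest.

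**Figure D4:**
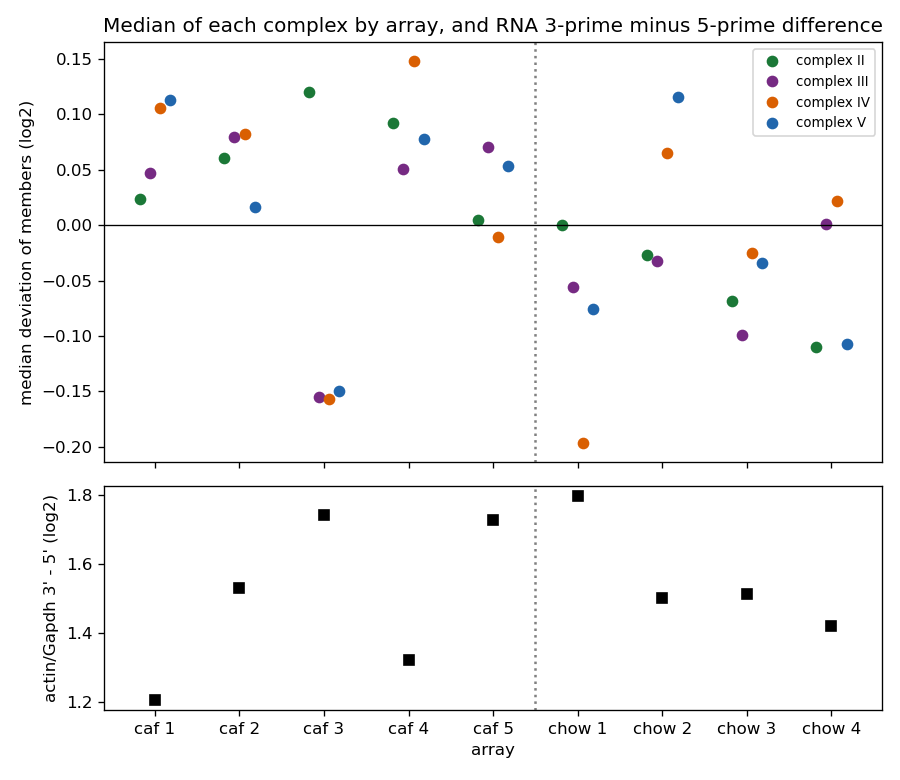
Upper part: median deviation of the members of each complex from their 9-array means (log2), by array, cafeteria left of the dotted line. Lower part: 3-prime minus 5-prime difference of the actin and Gapdh control probe sets (log2) on the same arrays. Complexes III, IV and V lie between -0.16 and -0.15 in cafeteria replicate 3, where complex II lies at 0.12.

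The related gene lists gave no call either, where 0% of 31042 probe sets were called. Of 34 measured complex I subunits 21 had positive differences, with a median of 0.022, and 0 were past the threshold by limma. At an unadjusted p under 0.05, 1 had higher values (Ndufa9, 0.18, SE 0.07), against 3.42% of all genes, and 0 had lower values, against 3.28%. The score of the complex I subunits was also lowest in cafeteria replicate 3, at -0.21, against -0.062 to 0.14 on the other arrays. Ndufb3, the next by p, differed by 0.15 (SE 0.07). Among assembly factors of complexes II to V, 23 of 32 had positive differences, with a median of 0.077, and 0 passed. At an unadjusted p under 0.05, 2 of the 32 had higher and 0 had lower values, against the same shares of all genes. Cox18, an inserter of complex IV, differed by 0.25 (SE 0.09) and Bcs1l, which places the Rieske protein in complex III, by 0.30 (SE 0.12). Of 8 tissue-limited or stress forms 3 had positive differences, and 2 of the 8 had mean values above that of the median gene. Cox4i2, the form of Cox4i1 used under low oxygen, differed by -0.32 (SE 0.22), and Cox8b by -0.099 (SE 0.08). Of 7 membrane carriers and synthase regulators 5 had positive differences, with a median of 0.075. The smallest unadjusted p in this list belonged to the ADP/ATP carrier gene Slc25a5 (0.18, SE 0.08) and to Atp5if1 (0.20, SE 0.11), which encodes the inhibitor of ATP synthase. The largest difference was negative, in Ucp2 (-0.41, SE 0.23), which encodes an uncoupling protein of the inner membrane and is named because of its value.

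Among 9 transcription factors of respiratory genes, 5 had positive and 4 negative differences, with a median of 0.0092, and 0 passed. At an unadjusted p under 0.05, 1 had higher values, against 3.42% of all genes, and 2 had lower values, against 3.28%. Gabpb1 and Gabpa, which encode GABP, are named beyond the rule. Gabpb1 differed by -0.26 (SE 0.08), with overlap between the groups, and Gabpa by 0.0092 (SE 0.11). The coactivator gene Ppargc1a had 5.37, 5.53, 5.92, 6.17 and 6.13 in cafeteria samples, against 5.01, 5.17, 5.44 and 5.43 in chow samples, a difference of 0.56 (SE 0.18; limma adjusted p = 0.844). Nrf1, which encodes the factor of the NRF-1 word, had 6.42, 6.23, 6.35, 6.26 and 6.32 in cafeteria samples, against 6.58, 6.45, 6.54 and 6.56 in chow samples, a difference of -0.21 (SE 0.07). These values overlapped between the groups in Ppargc1a and did not in Nrf1.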

How the data were processed

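The deposited table holds log2 expression values of 31099 probe sets on 9 arrays. Per the submitters' processing notes, the authors used RMA, affy 2.0.1 and R 2.7.0, with no role given for each. RMA makes the distributions of the arrays equal, so a shift shared by most genes would be removed, and the values carry no detection call. After 57 control probe sets were left out, 31042 were tested. The platform annotation gave 20826 a single gene (20758 matched in a RefSeq gene table, 0 symbols changed) and 436 several genes, and 9780 were not listed. Each gene was represented by its brightest probe set on average.

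Differences came from limma 3.58.1 (R 4.3.3; lmFit, eBayes, two-sided, Benjamini-Hochberg over all tested probe sets, threshold 0.05), tested on simulated data. Summaries, promoter searches and plots used Python 3.11.15 with pandas 2.3.3, numpy 2.4.6, scipy 1.17.1 and matplotlib 3.10.9. The labels carry no replicate numbers or batches, so replicates were numbered by order. Precision is limited by the 9 arrays, with a median SE of 0.0937 log2 over the members. The members and lists were chosen with earlier results of these data known. All members are named; values on every array are given for the 3 with the smallest unadjusted p in complexes II to V and for Atp5mc3 (Cycs, Atp5mc1 and Atp5mc2, also in the rule, have shared probe sets only), and 2 genes are named from each further list. Alternatives were median centring, repeated quantile normalization, brighter probe sets alone, array weights, an intensity trend with robust variances, RNA quality or the acinar score as a covariate, the mean of a gene's probe sets, a threshold of 0.10 and leaving out samples.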

Additional observations from a re-analysis of the deposited data

Results flagged for a closer look

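In 7 of 68 groups of values looked at (34 members in each diet), 1 array lay far from the rest of its group, judged by its gap to the nearest value relative to the range of the group. For independent groups of normal values, chance alone would give about 1 in 20. These groups share the same 9 arrays, and the share over all genes was not determined, so no excess in the members is shown. Among all genes cafeteria replicate 3 held the lowest or the highest of the 9 values in 38.6%. Cafeteria replicate 3 accounted for 6 of the 7, each time as the lowest cafeteria array: Uqcr11 at 9.29, Cox7b at 10.86, Cox6a1 at 9.46, Atp5mg at 10.41, Atp5mf at 10.17 and Atp5mc3 at 10.66. The other was Cox4i1, highest in cafeteria replicate 1 at 11.37.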

How the results depend on the processing

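There were 18 other settings: 8 of processing, 9 with 1 sample left out, and 1 chosen after seeing the data, without cafeteria replicate 3 and chow replicate 1. Under all of them and at a threshold of 0.10, 0 of 34 members passed limma's test. The same held for all probe sets, of which 0 passed each time, so this count is not particular to the members. The medians of the 4 complexes stayed positive and moved by less than the spread between arrays. With single samples left out, the median was 0.071 to 0.13 for complex II, 0.086 to 0.13 for complex III, 0.0024 to 0.12 for complex IV and 0.0015 to 0.088 for complex V. At an unadjusted p under 0.05, the main fit found 3 members with higher values. Weighting the arrays gave 7, and the RNA quality covariate gave 5. Leaving out cafeteria replicate 3 gave 5, alone or together with chow replicate 1. Leaving out cafeteria replicate 4, chow replicate 3 or chow replicate 4 gave 1 each. The remaining settings gave 2 to 4. Probe sets at that level, in either direction, numbered 1789 in the main fit. They rose to 2675 with weighted arrays and to 3413 with the RNA covariate, so the count grew there beyond the members too. Without cafeteria replicate 3 they numbered 1332, and 2040 without it and chow replicate 1.

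The sign was kept under every setting run in 17 members and changed in 17, so the sign of those 17 is not settled. With 1 sample left out these differed by -0.0045 to 0.073 (Sdhb), -0.19 to 0.0173 (Uqcr11), -0.16 to 0.0227 (Uqcrc1), -0.13 to 0.0451 (Uqcrfs1), -0.29 to 0.0224 (Cox6a1), -0.29 to 0.0114 (Cox8a), -0.000915 to 0.0524 (Cox4i1), -0.0614 to 0.15 (Cox5b), -0.0599 to 0.0456 (Cox6c), -0.24 to 0.00655 (Atp5f1d), -0.00275 to 0.10 (Atp5mf), -0.0292 to 0.11 (Atp5me), -0.0929 to 0.024 (Atp5f1b), -0.0575 to 0.072 (Atp5mc3), -0.054 to 0.0442 (Atp5f1e), -0.0358 to 0.0588 (Atp5pb) and -0.0676 to 0.12 (Atp5pf). Repeated quantile normalization turned Atp5f1b to 0.00588 and Atp5f1e to 0.000271, and array weights turned Atp5mc3 to 0.0242. RNA quality as a covariate turned Cox5b to -0.0274, Cox6c to -0.0231, Atp5pb to -0.0105 and Atp5pf to -0.0461. The acinar score turned Cox4i1 to -0.00692, Atp5mc3 to 0.0204 and Atp5f1e to 0.0333. Without cafeteria replicate 3 and chow replicate 1, Cox6c was -0.0201, Atp5mc3 0.0305, Atp5f1e 0.0578 and Atp5pb -0.00626. The cause was not tested. No paired analysis was run because the labels match no cafeteria sample to a chow sample.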
